A study of Mus musculus with 12 samples.

Results

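The receptors for GABA, glycine and glutamate were followed in granule cell progenitors of the mouse cerebellum with and without an activated hedgehog pathway. The genes were taken by symbol (Gabr, Gabbr, Glra, Glrb, Gria, Grik, Grid, Grin and Grm names), with the probe set of the highest mean over the 12 arrays standing for each gene, which gave 43 of the 18194 genes measured. They comprised 15 GABA-A receptor genes, 1 GABA-B receptor gene, 5 glycine receptor genes, 4 AMPA, 5 kainate, 1 delta, 6 NMDA and 6 metabotropic glutamate receptor genes. Progenitors were isolated on a Percoll gradient at postnatal day 8 from mice of mixed C57BL/6 and Swiss Webster background, with 5 mice pooled for each array and 3 arrays in each of 4 groups. The groups were SmoM2 hemisphere, wild type hemisphere, SmoM2 vermis and wild type vermis. SmoM2 cells came from Atoh1-CreER/+; R26LSL-SmoM2-YFP mice given 200 µg of tamoxifen per g at postnatal day 2, so an activated, YFP-tagged Smoothened was expressed from the Rosa26 locus after a Cre recombinase under Atoh1 control had removed a stop cassette. The labels do not say whether wild type mice were given tamoxifen or what share of SmoM2 cells had recombined, and a Percoll fraction can hold other cell types. Expression is given throughout as log2 values of an Affymetrix mouse expression array, on which a difference of 1 is a doubling of signal.

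GABA and glycine open chloride channels (GABA-A and glycine receptors), and GABA also acts through the G protein-coupled GABA-B receptor. Glutamate opens the cation channels of the AMPA, kainate and NMDA receptors and acts through the G protein-coupled metabotropic receptors, while delta receptors are held at parallel fibre synapses by cerebellins. Immature neurons carry several of these receptors before they form synapses, and in the cerebellum granule cells exchange early subunits for adult ones as they leave the outer layer and mature.

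The hedgehog targets separated the genotypes as labelled. Gli1, Ptch1 and Hhip, which hedgehog signalling switches on, and the progenitor gene Atoh1 were higher in SmoM2 in both regions. Hhip lay between 8.59 and 8.70 in SmoM2 hemisphere arrays and between 5.45 and 6.45 in wild type hemisphere arrays. In the marker counts below, a fall or rise means a limma adjusted p under 0.05 (Benjamini-Hochberg, over all genes). By that rule 7.18% of all genes were lower and 7.62% higher for the hemisphere. For the vermis 9.46% were lower and 7.56% higher. A single gene makes up 11.1% to 25% of a marker list, so a count of 1 cannot be told from these shares. Among 9 lists of cell type markers, those of GABAergic interneurons fell in 6 of 8 measured members in the hemisphere and 8 of 8 in the vermis, those of the oligodendrocyte lineage in 7 of 9 in each region, and those of microglia in 4 and 5 of 6. Granule neuron markers fell in 3 and 4 of 5 and unipolar brush cell markers in 1 and 2 of 4. Of 8 astroglial markers 3 were lower and 1 was higher in the hemisphere, with vermis counts of 2 lower and 1 higher. Of 9 Purkinje cell markers the counts were 0 lower and 1 higher for the hemisphere and 2 lower and 1 higher for the vermis, while 0 and 3 of 6 endothelial markers fell. Progenitor markers rose in 3 of 6 in each region and fell in 2 and 1. The 3 that rose were Atoh1, Gli1 and Ptch1, the genes already used above to check the labels. Barhl1, Zic1 and Pax6 had lower means in SmoM2 than in wild type in both regions. The mean of the interneuron list was 5.50 to 5.91 in SmoM2 hemisphere arrays against 6.33 to 6.63 in wild type hemisphere arrays, and 5.29 to 5.68 in SmoM2 vermis arrays against 6.57 to 6.79 in wild type vermis arrays. The difference between the 3′ and 5′ probe sets of Actb, which grows as RNA is degraded or labelled in shorter pieces, was 0.90 to 1.10 in SmoM2 hemisphere arrays against 0.46 to 0.79 in wild type hemisphere arrays, and 0.89 to 1.07 in SmoM2 vermis arrays against 0.88 to 0.90 in wild type vermis arrays. One array, wild type hemisphere replicate 3, read 7.07 for the bioB hybridisation control, where the other arrays read 8.53 to 9.38. In bulk samples of this kind, fewer cells of a type and less RNA per cell cannot be told apart, and the part of these markers, of RNA quality and of that array in the receptor results was not tested.

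**Figure D1:**
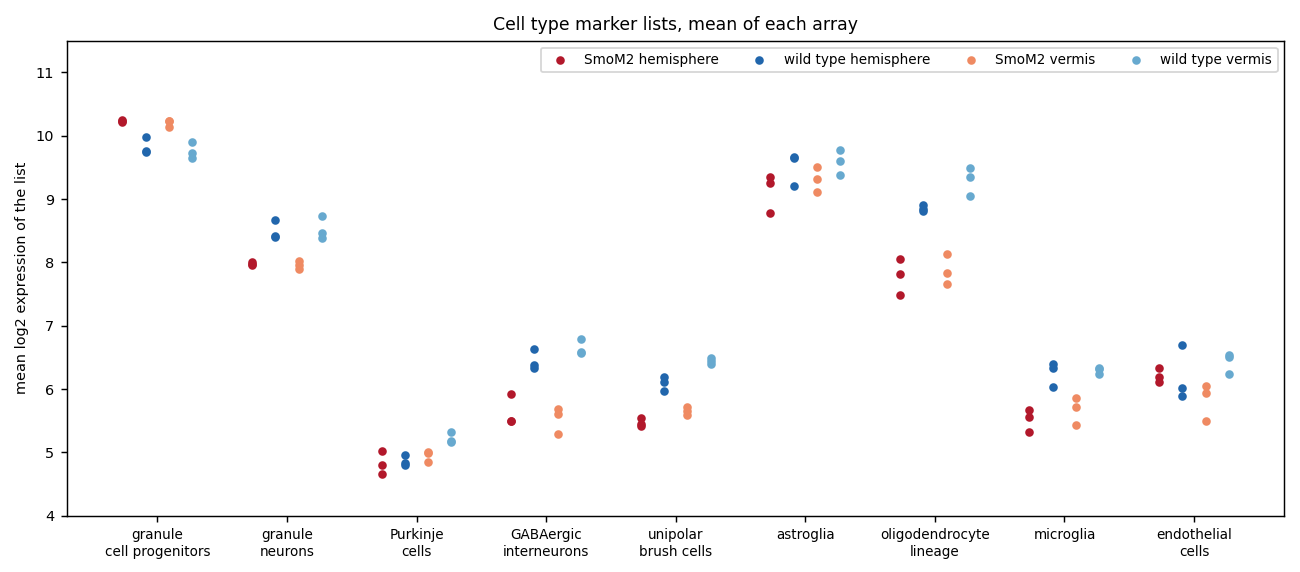
Mean log2 expression of 9 cell type marker lists, 1 point for each of the 12 arrays, with SmoM2 left of wild type in each region. The interneuron list lies between 5.50 and 5.91 in SmoM2 hemisphere arrays, below the 6.33 to 6.63 of wild type hemisphere arrays.

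SmoM2 cells differed from wild type in a minority of the receptors, mostly by lower expression. The AMPA receptor subunit Gria3 and the NMDA receptor subunit Grin3a rose in both regions. The GABA-A subunit Gabra2, the GABA-B subunit Gabbr1, the AMPA subunit Gria4 and the kainate subunits Grik2 and Grik3 fell in both. In the hemisphere 11 of the 43 genes passed (limma, Benjamini-Hochberg adjusted p under 0.05 over all genes), 3 higher and 8 lower, where 14.8% of all genes passed, 7.62% higher and 7.18% lower. In the vermis 11 passed as well, 3 higher and 8 lower, where 17% of all genes passed, 7.56% higher and 9.46% lower. The members that passed made up 25.6% of the 43 in each region. Altogether 15 genes passed in at least 1 region, 7 of them in both, 4 in the hemisphere alone and 4 in the vermis alone, and 28 passed in neither. The median receptor difference was -0.15 for either region, against -0.05 and -0.06 over all genes. Of the 43 genes 33 had a negative difference in each region, where 58.2% and 58.3% of all genes did. The sign was the same in both regions for 37 genes, 30 lower and 7 higher. The 3 arrays of 1 genotype lay entirely apart from the 3 of the other for 14 receptor genes in each region (32.6%), where 31.7% of all genes did so in the hemisphere and 39.8% in the vermis.

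The number of passing genes rested on single arrays. Without SmoM2 hemisphere replicate 3, 4 genes passed in the hemisphere, 6 without its replicate 1 and 7 without its replicate 2. Over all 18194 genes the number passing fell too, from 2694 to 1705, 1633 and 2041 in turn. Without SmoM2 vermis replicate 3, 5 genes passed in the vermis, 7 without its replicate 1, and 6 without replicate 3 of wild type vermis. There the number over all genes fell from 3096 to 2212, 1795 and 1920 in turn. With the array of low bioB signal left out, wild type hemisphere replicate 3, 8 genes passed in the hemisphere and 11 in the vermis. Over all genes 2092 and 3627 passed in that setting. The receptors spanned the range of array signal. On all 12 arrays 16 receptor genes lay above the array median, which was 4.81 to 4.87, and 11 others lay above the lower quartile, which was 3.24 to 3.42. A further 10 fell below the lower quartile on some arrays, and 6 (Gabrq, Glra1, Glra3, Glra4, Grin2a and Grm8) lay below it on all 12, where no detection call tells weak signal from background.

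**Figure D2:**
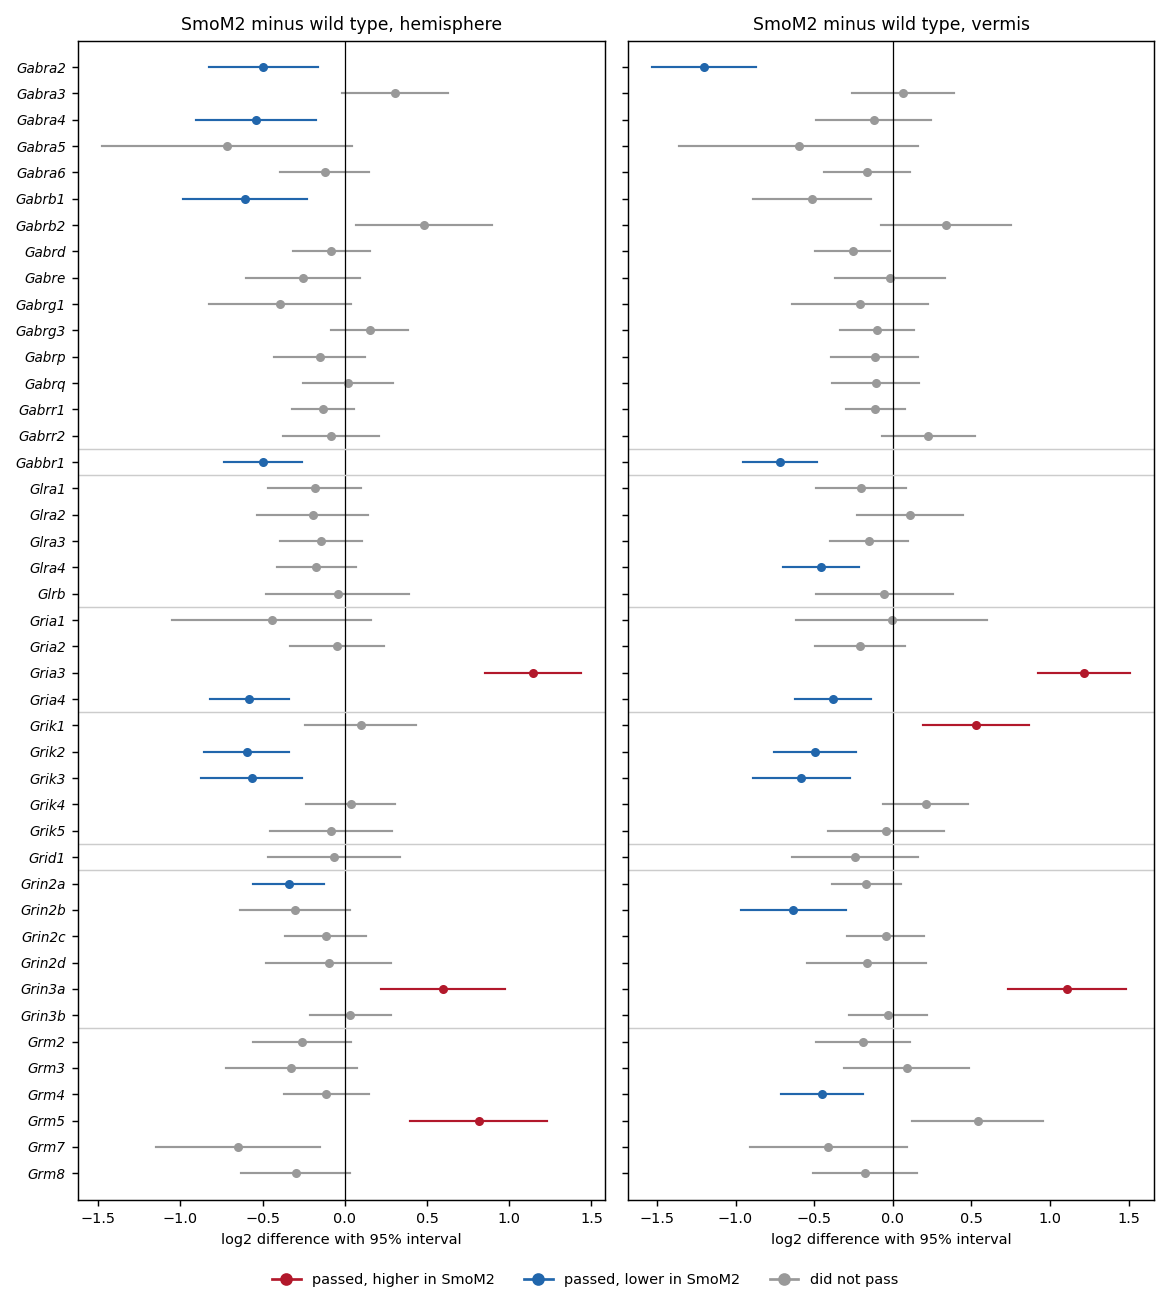
Difference in log2 expression, SmoM2 minus wild type, for the 43 receptor genes in the hemisphere (left) and the vermis (right), with 95% intervals from limma and grey lines between receptor families. Red genes passed and were higher in SmoM2, blue genes passed and were lower, and Gria3 lies farthest to the right in both panels at 1.14 and 1.22.

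Upstream sequences were sought for the receptor genes that passed in both regions, but none was available for Gria3 and Grin3a, which rose. The sequences just upstream of the 5 receptor genes that fell in both regions are shown. Each is the 250 bases before the annotated start from RefSeq (build GRCm38.p6), read 5′ to 3′ on the gene's strand, with matches to the E-box CANNTG, the site of basic helix-loop-helix factors such as Atoh1, in capitals.
Gabra2 (chr5:71095850-71096099, minus strand): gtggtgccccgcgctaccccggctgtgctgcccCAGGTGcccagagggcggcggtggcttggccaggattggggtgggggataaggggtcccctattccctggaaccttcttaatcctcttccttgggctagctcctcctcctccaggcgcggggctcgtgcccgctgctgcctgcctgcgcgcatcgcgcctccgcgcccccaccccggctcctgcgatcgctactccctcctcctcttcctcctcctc
Gabbr1 (chr17:37045716-37045965, plus strand): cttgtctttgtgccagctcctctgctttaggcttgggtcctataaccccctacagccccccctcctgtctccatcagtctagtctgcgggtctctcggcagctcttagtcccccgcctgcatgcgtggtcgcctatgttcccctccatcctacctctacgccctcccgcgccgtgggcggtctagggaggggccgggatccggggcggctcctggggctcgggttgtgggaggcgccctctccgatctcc
Gria4 (chr9:4796235-4796484, minus strand): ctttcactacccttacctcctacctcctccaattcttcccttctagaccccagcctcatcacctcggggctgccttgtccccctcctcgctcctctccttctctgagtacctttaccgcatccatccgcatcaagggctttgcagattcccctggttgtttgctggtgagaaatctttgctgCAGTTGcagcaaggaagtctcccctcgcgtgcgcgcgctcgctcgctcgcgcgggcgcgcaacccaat
Grik2 (chr10:49788755-49789004, minus strand): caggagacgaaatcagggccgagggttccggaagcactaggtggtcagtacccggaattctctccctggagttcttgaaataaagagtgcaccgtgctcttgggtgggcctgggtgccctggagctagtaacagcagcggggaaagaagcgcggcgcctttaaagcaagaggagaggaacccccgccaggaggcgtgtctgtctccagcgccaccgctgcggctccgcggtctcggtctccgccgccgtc
Grik3 (chr4:125490446-125490695, plus strand): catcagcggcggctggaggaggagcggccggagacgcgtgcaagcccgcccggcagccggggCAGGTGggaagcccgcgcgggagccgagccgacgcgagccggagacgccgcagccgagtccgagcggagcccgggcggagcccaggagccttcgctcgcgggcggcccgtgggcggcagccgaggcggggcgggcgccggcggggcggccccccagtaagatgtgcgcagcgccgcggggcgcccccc
The E-box, which reads the same on both strands, was found once each in the windows of Gabra2, Gria4 and Grik3 and not in those of Gabbr1 and Grik2, while 66.2% of the 32851 windows in the table held at least 1. The GLI motif GACCACCCA, searched on both strands, was in 0 of the 5 and in 0.225% of all windows. CpG pairs numbered 42 for Grik3, 20 for Grik2, 18 for Gabra2 and 16 each for Gabbr1 and Gria4, against a median of 6 over all windows. At least as many were held by 0.9% of all windows for Grik3, 17.9% for Grik2, 21.7% for Gabra2 and 25.4% for Gabbr1 and Gria4. Of the 43 receptor genes 32 had 39 windows in the table, of which 17 held an E-box and 0 the GLI motif, with a median of 8 CpG pairs. Such matches describe the letters of these windows and nothing about binding.

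Among the 15 GABA-A receptor genes, whose products join in fives to form the chloride channel, 3 were lower and 0 higher in hemisphere SmoM2 cells, with 1 lower and 0 higher for the vermis. Gabra2, an alpha subunit of synaptic receptors, had 4.17, 4.26 and 3.99 in SmoM2 hemisphere arrays, against 5.01, 4.48 and 4.41 in wild type hemisphere arrays. It had 4.06, 3.95 and 4.37 in SmoM2 vermis arrays, against 5.36, 5.22 and 5.40 in wild type vermis arrays. The genotypes did not overlap in either region, and the wild type vermis arrays were the highest of all. The difference was -0.50 ± 0.15 (SE, adjusted p = 0.0454) in the hemisphere and -1.20 ± 0.15 (adjusted p = 0.000107) in the vermis. Of its 5 probe sets, tested one by one, 3 passed lower in the hemisphere and 4 in the vermis. In each region 1 of these lay below the lower quartile on all 12 arrays. The brightest probe set was not among those passing in the hemisphere when so tested (adjusted p = 0.0522). The hemisphere call was near the threshold for the probe set that stands for the gene: it held without wild type hemisphere replicate 3 and without SmoM2 vermis replicate 3, and leaving out any 1 of the other arrays gave adjusted p from 0.0521 to 0.155. Over all 21 alternative settings the hemisphere call held in 6 and the vermis call in 21.

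Gabra4, an alpha subunit found mostly outside synapses, had 6.96, 7.15 and 7.22 in SmoM2 hemisphere arrays, against 8.13, 7.48 and 7.35 in wild type hemisphere arrays. In the vermis it had 7.29, 6.90 and 7.08 in SmoM2 arrays, against 7.30, 7.17 and 7.17 in wild type arrays. The hemisphere groups lay apart, with wild type replicate 1 well above the rest, and the vermis groups overlapped. The difference was -0.54 ± 0.17 (adjusted p = 0.0467) in the hemisphere and -0.12 ± 0.17 (adjusted p = 0.641) in the vermis. The hemisphere call held without wild type hemisphere replicate 3, and leaving out any 1 of the other arrays gave adjusted p from 0.0521 to 0.156. Over all 22 alternative settings it held in 5, and 0 of its 2 probe sets passed when tested one by one.

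Gabrb1, a beta subunit, had 6.70, 7.25 and 7.16 in SmoM2 hemisphere arrays, against 7.99, 7.40 and 7.54 in wild type hemisphere arrays. It had 7.07, 6.68 and 6.71 in SmoM2 vermis arrays, against 7.52, 7.23 and 7.26 in wild type vermis arrays. All SmoM2 arrays lay below all wild type arrays of their region. The difference passed in the hemisphere (-0.61 ± 0.18, adjusted p = 0.0335) and not in the vermis (-0.51 ± 0.18, adjusted p = 0.0599). Without wild type hemisphere replicate 1 the hemisphere value was 0.0801, without its replicate 3 it was 0.0519, and without SmoM2 hemisphere replicates 1 and 3 in turn it was 0.146 and 0.0559. The hemisphere value was 0.064 with array weights and 0.0694 with only the groups compared in the fit. In the vermis the adjusted p came to 0.0299 without wild type hemisphere replicate 1 and 0.0447 without SmoM2 hemisphere replicate 1, and it passed in 6 of 22 settings. Of its 4 probe sets 2 passed in the hemisphere and 0 in the vermis. Among SmoM2 arrays the mean of the astroglial marker list was lowest in hemisphere replicate 1 (8.78) and highest in vermis replicate 1 (9.50), and Gabrb1 and Gabra4 were lowest and highest of their groups in the same arrays. The wild type arrays did not run this way throughout. In wild type hemisphere the astroglial mean was 9.66 in replicate 1, where both genes were highest, and 9.65 in replicate 3, where Gabra4 was lowest (7.35). In wild type vermis the mean was highest in replicate 3 (9.77), while both genes were highest in replicate 1 (7.52 for Gabrb1 and 7.30 for Gabra4). The part of astroglial RNA in these values was not tested.

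The other 12 GABA-A genes, each read from its brightest probe set, passed in neither region. Gabrb2, another beta subunit, came closest in the hemisphere, at 0.48 ± 0.19 (adjusted p = 0.107), with 0.34 ± 0.19 in the vermis (adjusted p = 0.234). Its 5 probe sets disagreed when tested one by one. A dimmer one passed higher in the hemisphere (0.50, adjusted p = 0.0162) and not in the vermis (0.28, adjusted p = 0.134). The pair next in brightness to the kept one read lower in SmoM2 (hemisphere differences of -0.43 and -0.30, vermis differences of -0.42 and -0.25) and did not pass, so Gabrb2 has no settled direction here. Gabra5, an alpha subunit, had the widest spread, with differences of -0.71 (95% interval -1.47 to 0.05) and -0.60 (-1.36 to 0.16). It lay between 2.67 and 3.16 on the 6 SmoM2 arrays, while the wild type arrays ranged from 2.71 to 4.32. Gabra6 and Gabrd, which mature granule cells use for tonic inhibition, were below the lower quartile on 11 and 7 arrays, and their hemisphere differences were -0.12 and -0.08, with vermis differences of -0.16 and -0.26. The second probe set of Gabra6, below the lower quartile on all 12 arrays, passed lower in the vermis (-0.51, adjusted p = 0.031) and not in the hemisphere (-0.45, adjusted p = 0.0515). A dimmer probe set of Gabrg3, below the lower quartile on as many arrays, also passed lower in the vermis (-0.34, adjusted p = 0.0442), where the brightest gave -0.10. The remaining genes (Gabra3, Gabre, Gabrg1, Gabrg3, Gabrp, Gabrq, Gabrr1 and Gabrr2) had differences from -0.39 to 0.30 in the hemisphere and from -0.21 to 0.23 in the vermis. Gabra2, Gabra4 and Gabrb1 lie in 1 gene cluster on chromosome 5 with Gabrg1 (RefSeq, GRCm38.p6), whose differences were -0.39 and -0.21 and did not pass. Gabra6 and Gabrb2 are neighbours on chromosome 11, and whether their signs were opposite depended on which Gabrb2 probe set was read.

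Gabbr1 encodes the subunit of the GABA-B receptor that binds GABA. It had 7.81, 8.01 and 7.93 in SmoM2 hemisphere arrays, against 8.45, 8.22 and 8.58 in wild type hemisphere arrays. It had 7.94, 7.88 and 7.76 in SmoM2 vermis arrays, against 8.63, 8.50 and 8.60 in wild type vermis arrays. The 6 SmoM2 arrays all lay below the 6 wild type arrays. It fell by 0.50 on the log2 scale in the hemisphere (SE 0.11, adjusted p = 0.00757) and by 0.72 in the vermis (SE 0.11, adjusted p = 0.00048), and both calls held on leaving out each array. Of its 4 probe sets only the brightest passed. The others had differences from -0.28 to -0.09 in the hemisphere and from -0.22 to -0.20 in the vermis, and the mean of all 4 did not pass in the hemisphere (adjusted p = 0.107).

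Of the 5 glycine receptor genes 0 passed in the hemisphere and 1 fell in the vermis. In the hemisphere 0 of the 5 had an adjusted p under 0.317. Glrb, the beta subunit that anchors the channel at synapses, was the one gene of the family above the array median, at 7.65 to 7.74 in SmoM2 hemisphere arrays against 7.18 to 8.27 in wild type hemisphere arrays, and 7.56 to 7.91 in SmoM2 vermis arrays against 7.57 to 7.94 in wild type vermis arrays. Its differences were -0.04 (95% interval -0.48 to 0.39) and -0.05 (-0.49 to 0.38). Glra4, an alpha subunit, had 3.04, 3.00 and 2.84 in SmoM2 hemisphere arrays, against 2.98, 3.19 and 3.24 in wild type hemisphere arrays. It had 2.68, 2.81 and 2.56 in SmoM2 vermis arrays, against 3.28, 3.06 and 3.07 in wild type vermis arrays. The vermis groups did not overlap, and the difference was -0.46 ± 0.11 (adjusted p = 0.0143), against -0.17 ± 0.11 (adjusted p = 0.317) in the hemisphere. All 12 values lay below the lower quartile of their arrays, and the vermis adjusted p was 0.0592 without SmoM2 vermis replicate 3 and 0.0548 on quantile normalizing again. The alpha subunits Glra1, Glra2 and Glra3 passed in neither region.

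Of the 4 AMPA receptor genes, which carry fast excitation, 1 rose and 1 fell in each region. Gria3 had 7.10, 7.05 and 7.14 in SmoM2 hemisphere arrays, against 6.11, 6.11 and 5.64 in wild type hemisphere arrays. It had 7.16, 7.06 and 7.28 in SmoM2 vermis arrays, against 6.01, 6.10 and 5.73 in wild type vermis arrays. Every SmoM2 array was at least as high as 7.05 and every wild type array at most as high as 6.11. The difference was 1.14 ± 0.14 in the hemisphere, a 2.21-fold rise (adjusted p = 5.75e-05), and 1.22 ± 0.14 in the vermis, a 2.33-fold rise (adjusted p = 3.14e-05). Both of its probe sets passed in both regions, the second with differences of 1.07 and 0.91. Both calls held in all 22 alternative settings.

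Gria4, a subunit abundant in granule cells and Bergmann glia, had 8.75, 8.77 and 8.79 in SmoM2 hemisphere arrays, against 9.24, 9.57 and 9.23 in wild type hemisphere arrays. It had 8.99, 8.80 and 8.93 in SmoM2 vermis arrays, against 9.42, 9.18 and 9.25 in wild type vermis arrays. The 6 SmoM2 arrays again lay below the 6 wild type arrays. Gria4 fell by 0.58 in the hemisphere (SE 0.11, adjusted p = 0.00316) and by 0.38 in the vermis (SE 0.11, adjusted p = 0.034). Of its 3 probe sets only the brightest passed, and the mean of the 3 gave adjusted p of 0.122 and 0.0518. Median centring of each array gave 0.0501 in the vermis. The vermis call was lost on leaving out wild type vermis replicate 1 (0.0946) or 3 (0.0719) or any SmoM2 vermis array (replicate 1, 0.0586, replicate 2, 0.13, and replicate 3, 0.0703). Gria2, the subunit that keeps edited channels closed to calcium, stood at 9.47 to 9.68 in SmoM2 hemisphere arrays against 9.49 to 9.77 in wild type hemisphere arrays, and its differences were -0.05 (95% interval -0.33 to 0.24) and -0.21 (-0.50 to 0.08). Gria1 did not pass (-0.44, adjusted p = 0.303, and -0.01, adjusted p = 0.99). Its values ran from 6.16 to 7.04 in SmoM2 hemisphere arrays against 6.83 to 7.67 in wild type hemisphere arrays.

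**Figure D3:**
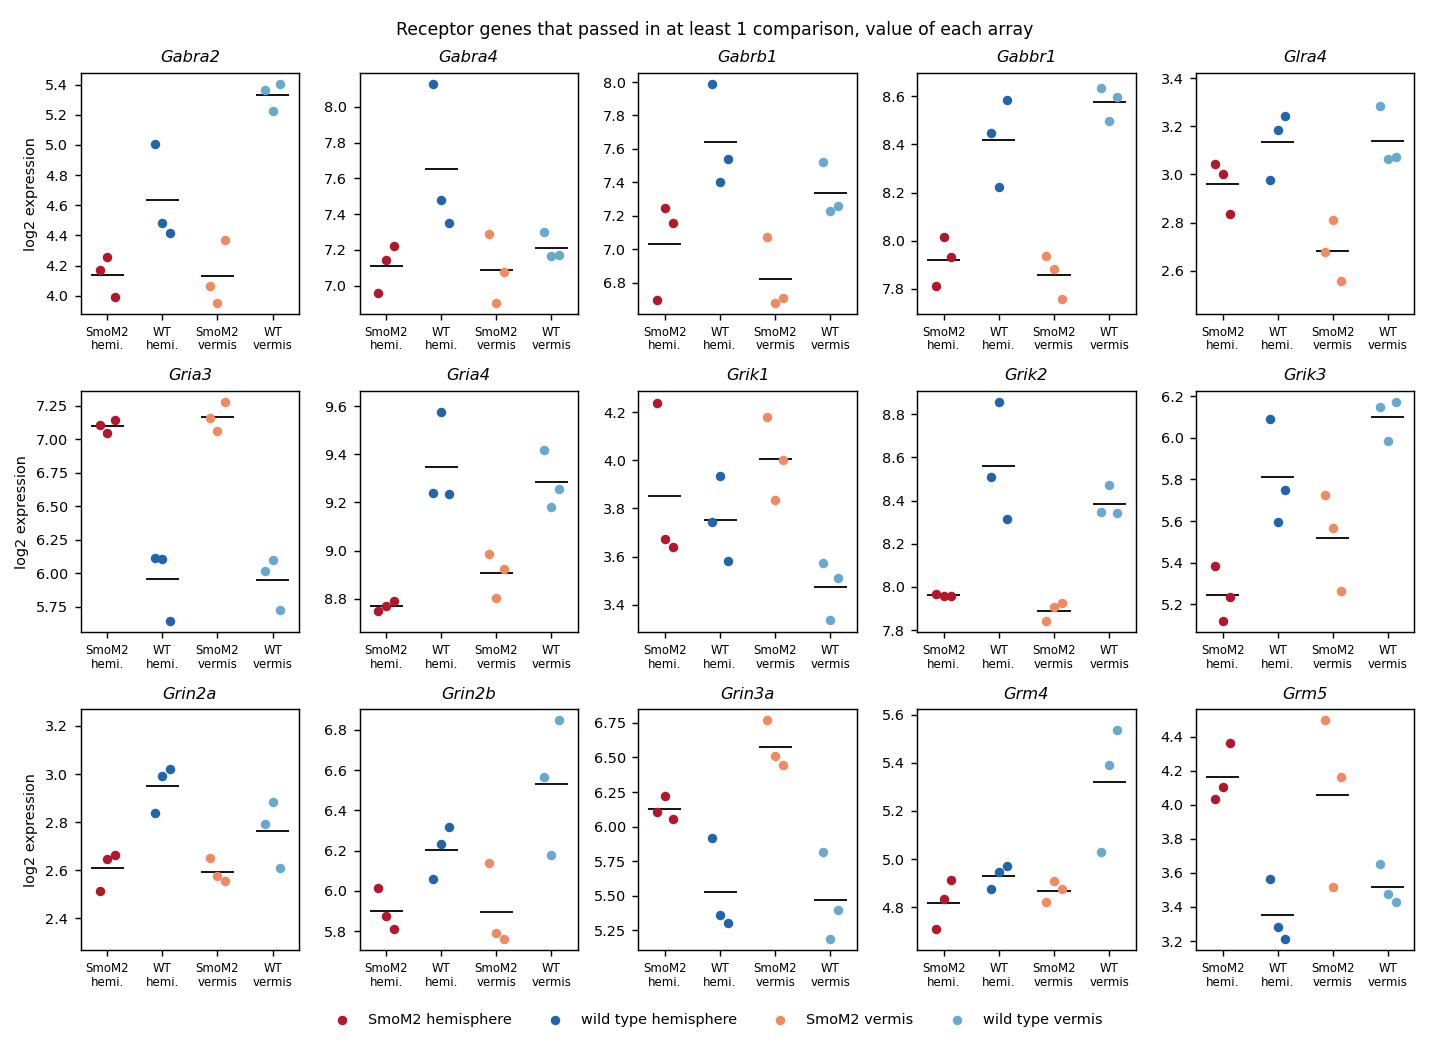
Log2 expression on each of the 12 arrays for the 15 receptor genes that passed in at least 1 region, with bars at the group means, SmoM2 left of wild type in each region and a vertical axis of its own for each gene. Gria3 is at or above 7.05 on every SmoM2 array and at or below 6.11 on every wild type array.

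Of the 5 kainate receptor genes 2 fell in both regions and 1 rose in the vermis. Grik2 had 7.97, 7.96 and 7.96 in SmoM2 hemisphere arrays, against 8.51, 8.85 and 8.31 in wild type hemisphere arrays. It had 7.84, 7.91 and 7.92 in SmoM2 vermis arrays, against 8.35, 8.47 and 8.34 in wild type vermis arrays. The SmoM2 arrays were tightly grouped below all wild type arrays. Grik2, a subunit that can form channels alone, fell by 0.60 in the hemisphere (SE 0.12, adjusted p = 0.00418) and by 0.49 in the vermis (SE 0.12, adjusted p = 0.0131). The vermis call was lost on leaving out wild type vermis replicate 2 (0.0542) or SmoM2 vermis replicate 1 (0.052).

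Grik3, a subunit of the same low-affinity class, had 5.39, 5.12 and 5.23 in SmoM2 hemisphere arrays, against 6.09, 5.60 and 5.75 in wild type hemisphere arrays. It had 5.73, 5.57 and 5.27 in SmoM2 vermis arrays, against 6.15, 5.98 and 6.17 in wild type vermis arrays. The groups did not overlap within a region. It fell by 0.57 in the hemisphere (SE 0.14, adjusted p = 0.0169) and by 0.58 in the vermis (SE 0.14, adjusted p = 0.0142). Single arrays ended the call: without SmoM2 hemisphere replicates 2 and 3 in turn the hemisphere adjusted p was 0.0666 and 0.0552, and without SmoM2 vermis replicate 3 and wild type vermis replicate 3 in turn the vermis one was 0.0617 and 0.0518. For Grik2 and Grik3 the second probe set of each gene did not pass in either region.

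Grik1, the third low-affinity subunit, had 4.24, 3.67 and 3.64 in SmoM2 hemisphere arrays, against 3.74, 3.93 and 3.58 in wild type hemisphere arrays. In SmoM2 vermis arrays it had 4.18, 3.83 and 3.999, against 3.57, 3.34 and 3.51 in wild type vermis arrays. The vermis groups lay apart and the hemisphere groups overlapped. The difference was 0.53 ± 0.16 (adjusted p = 0.0335) in the vermis and 0.10 ± 0.16 (adjusted p = 0.708) in the hemisphere. Its second probe set did not pass, and the mean of both gave an adjusted p of 0.193 in the vermis. The vermis call was also lost on leaving out wild type vermis replicate 2 (0.119) or 3 (0.0719) or SmoM2 vermis replicate 1 (0.13) or 3 (0.0731). The high-affinity subunits Grik4 and Grik5 did not pass, with hemisphere differences of 0.03 and -0.08 and vermis differences of 0.21 and -0.04. The delta receptor gene Grid1 did not pass either (-0.07 and -0.24).

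Of the 6 NMDA receptor genes 1 rose in both regions, 1 fell in the hemisphere and 1 fell in the vermis. Grin3a, a glycine-binding subunit that lowers the calcium flow of the channel, had 6.11, 6.22 and 6.05 in SmoM2 hemisphere arrays, against 5.92, 5.36 and 5.30 in wild type hemisphere arrays. It had 6.77, 6.51 and 6.44 in SmoM2 vermis arrays, against 5.82, 5.19 and 5.40 in wild type vermis arrays. The groups lay apart in both regions, and replicate 1 was the highest of each wild type group. The difference was 0.60 ± 0.18 in the hemisphere, a 1.51-fold rise (adjusted p = 0.0356), and 1.11 ± 0.18 in the vermis, a 2.15-fold rise (adjusted p = 0.000657). Of its 3 probe sets 2 passed in both regions, and the third had differences of 0.11 and 0.22. The vermis call held in all 21 alternative settings. The hemisphere call was lost on leaving out wild type hemisphere replicate 2 (0.124) or 3 (0.125) or any SmoM2 hemisphere array (replicate 1, 0.0885, replicate 2, 0.101, and replicate 3, 0.0709).

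Grin2b, the glutamate-binding subunit that predominates early in development, had 6.01, 5.87 and 5.81 in SmoM2 hemisphere arrays, against 6.06, 6.23 and 6.32 in wild type hemisphere arrays. It had 6.14, 5.79 and 5.76 in SmoM2 vermis arrays, against 6.56, 6.18 and 6.85 in wild type vermis arrays. The groups lay apart in both regions, by a narrow gap at wild type replicate 1 in the hemisphere and at wild type replicate 2 in the vermis. The difference passed in the vermis (-0.63 ± 0.16, adjusted p = 0.0142) and not in the hemisphere (-0.30 ± 0.16, adjusted p = 0.201). The vermis adjusted p was 0.065 without wild type replicate 3 of that region, 0.0604 without SmoM2 replicate 2 and 0.0542 without SmoM2 replicate 3. The other 3 probe sets of Grin2b did not pass.

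Grin2a, the glutamate-binding subunit that gains weight later, had 2.52, 2.65 and 2.66 in SmoM2 hemisphere arrays, against 2.84, 2.99 and 3.02 in wild type hemisphere arrays. It had 2.65, 2.58 and 2.56 in SmoM2 vermis arrays, against 2.79, 2.88 and 2.61 in wild type vermis arrays. All of these values lay below the lower quartile, and the vermis groups overlapped. The difference was -0.34 ± 0.10 (adjusted p = 0.0373) in the hemisphere and -0.17 ± 0.10 (adjusted p = 0.263) in the vermis. The hemisphere call held without wild type hemisphere replicate 1 and without each wild type vermis array, and leaving out any 1 of the other arrays gave adjusted p from 0.0505 to 0.133. It also failed on quantile normalizing again (0.0872) and with only the groups compared in the fit (0.093). Grin2c, a subunit of adult granule cells, Grin2d and Grin3b did not pass, with differences from -0.12 to 0.03 in the hemisphere and from -0.17 to -0.03 in the vermis.

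Of the 6 metabotropic glutamate receptor genes 1 rose in the hemisphere and 1 fell in the vermis. Grm5, which acts through phospholipase C, had 4.03, 4.10 and 4.36 in SmoM2 hemisphere arrays, against 3.56, 3.28 and 3.21 in wild type hemisphere arrays. It had 4.50, 3.52 and 4.16 in SmoM2 vermis arrays, against 3.65, 3.48 and 3.43 in wild type vermis arrays. The hemisphere groups lay apart, whereas SmoM2 vermis replicate 2 fell among the wild type vermis arrays. The difference was 0.81 ± 0.19 (adjusted p = 0.0121) in the hemisphere and 0.54 ± 0.19 (adjusted p = 0.0704) in the vermis. Without SmoM2 hemisphere replicate 3 the hemisphere adjusted p was 0.058, and without SmoM2 vermis replicate 2 the vermis difference was 0.81 with an adjusted p of 0.00404. Its second probe set did not pass, and the mean of both gave 0.0523 in the hemisphere.

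Grm4, the receptor of parallel fibre terminals, which inhibits adenylyl cyclase, had 4.71, 4.83 and 4.91 in SmoM2 hemisphere arrays, against 4.87, 4.95 and 4.97 in wild type hemisphere arrays. It had 4.82, 4.91 and 4.88 in SmoM2 vermis arrays, against 5.03, 5.39 and 5.54 in wild type vermis arrays. Only the vermis groups lay apart. The difference was -0.45 ± 0.12 (adjusted p = 0.0214) in the vermis and -0.11 ± 0.12 (adjusted p = 0.552) in the hemisphere. The vermis call was lost on leaving out wild type vermis replicate 2 (0.0777) or 3 (0.0974) or any SmoM2 vermis array (replicate 1, 0.075, replicate 2, 0.0545, and replicate 3, 0.053). Grm7, a receptor of the same class as Grm4, had a hemisphere difference of -0.65 ± 0.23 (adjusted p = 0.0759) and a vermis difference of -0.41 ± 0.23 (adjusted p = 0.232). Grm2, Grm3 and Grm8 did not pass, with differences from -0.33 to -0.26 in the hemisphere and from -0.19 to 0.09 in the vermis.

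Probe sets of 1 gene did not always behave alike. The 43 genes had 88 probe sets, with several for 27 genes and 1 for 16. Tested one by one over the 34958 probe sets with 1 symbol, 6 of the 88 passed higher and 10 lower in the hemisphere, where 12.8% of all probe sets passed, and 5 higher and 13 lower in the vermis, where 13.3% passed. No gene had probe sets that passed in opposite directions. Of the 7 genes called in both regions, Gria3, Grin3a and Gabra2 had more than 1 passing probe set in each region, and Gabbr1, Gria4, Grik2 and Grik3 had 1.

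**Figure D4:**
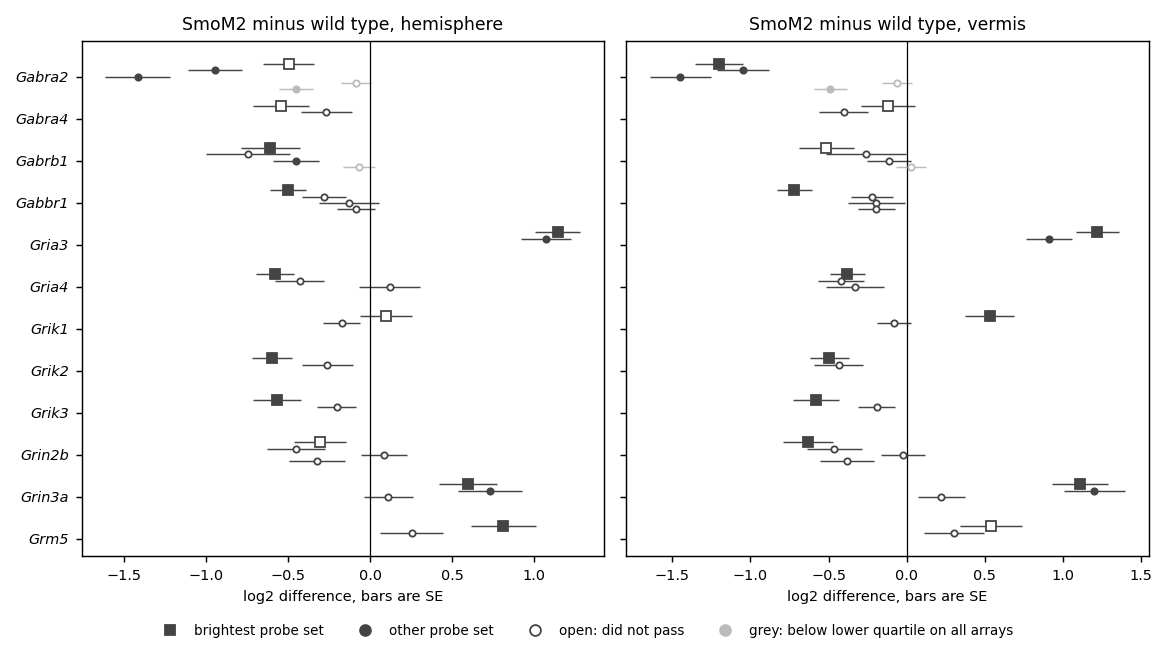
Difference in log2 expression, SmoM2 minus wild type, with SE, for every probe set of the 12 passing receptor genes that have several, in the hemisphere (left) and the vermis (right). Squares are the brightest probe set, filled symbols passed over all 34958 probe sets tested one by one, and the 2 probe sets of Gria3 lie together to the right of 0.9 in both panels.

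Between hemisphere and vermis no receptor gene passed in either genotype. In limma 0 of 43 passed for hemisphere minus vermis in wild type (0.187% of all genes), 0 in SmoM2 (0.0605%) and 0 for the difference between the SmoM2 effects of the regions (0%). At an unadjusted p under 0.05 the counts were 5, 3 and 1. In wild type these 5 were Gabra2 (-0.70, hemisphere lower), Grm4 (-0.39), Grm3 (0.54), Gabra4 (0.44) and Grin2c (0.25), with adjusted p from 0.135 to 0.784. For Gabra2 the 3 wild type hemisphere arrays (5.01, 4.48 and 4.41) lay below the 3 wild type vermis arrays (5.36, 5.22 and 5.40). Its adjusted p was 0.135, and it passed in 2 of 22 alternative settings. These were 0.0185 without wild type hemisphere replicate 1 and 0.0253 when arrays of 1 pool number shared a random block. Over the 22 settings the difference ran from -0.88 to -0.17, and the adjusted p reached 0.874. The Gabra2 probe sets next in brightness had wild type means of 4.34 and 4.68 in the hemisphere against 4.52 and 4.61 in the vermis. In SmoM2 the 3 were Gabrg1 (-0.44), Grin3a (-0.45) and Glra4 (0.28), each with an adjusted p of 1. In its brightest probe set the SmoM2 effect on Gabra2 differed between hemisphere and vermis by 0.71 ± 0.22. That interaction had an unadjusted p of 0.00613 and an adjusted p of 1. The Gabra2 probe sets next in brightness gave SmoM2 differences of -0.94 and -1.42 in the hemisphere against -1.05 and -1.45 in the vermis. So a call in 1 region alone, as for Gabra4, Gabrb1, Grin2a, Grm5, Glra4, Grik1, Grin2b and Grm4, was not shown to differ between the regions.

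Genes that make, move, anchor and modulate these receptors and their transmitters were followed in 8 lists, of which 84 of 97 genes were measured. Over all genes the hemisphere shares were 7.62% higher and 7.18% lower and the vermis shares 7.56% higher and 9.46% lower, while in lists of this size 1 gene makes up 5.56% to 20% of the members. Of 9 genes for synthesis, uptake and breakdown of GABA and glycine, 5 were lower and 0 higher in hemisphere SmoM2 cells, and 5 lower and 1 higher in those of the vermis. Gad1, which makes GABA, differed by -0.97 (adjusted p = 0.0395) and -1.90 (0.000509), and Slc6a5, the transporter of glycinergic neurons, by -0.80 (0.0271) and -1.12 (0.00351). The GABA transporter Slc6a11 rose in the vermis (0.74, adjusted p = 0.0131). This list shares Gad1, Gad2, Slc32a1 and Slc6a5 with the interneuron markers described above, so both counts rest in part on the same genes. Of 5 chloride transporters 1 fell in the hemisphere (Clcn3, -0.45, adjusted p = 0.012) and 0 passed in the vermis. Of 14 scaffold and partner genes of inhibitory receptors 1 fell in each region (7.14%), a share no higher than that over all genes. These were the receptor-trafficking gene Gabarap in the hemisphere (-0.37, 0.016) and the GABA-B auxiliary subunit Kctd16 in the vermis (-0.39, 0.0239).

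On the glutamate side, 3 of 13 auxiliary subunits of AMPA and kainate receptors were higher and 0 lower in hemisphere SmoM2 cells, and 4 were higher and 1 lower in those of the vermis. Gsg1l rose by 2.07 (adjusted p = 6.45e-09) and 2.34 (3.21e-09) and Cacng5 by 1.32 (0.000342) and 1.48 (0.000114), both of which are auxiliary subunits that change AMPA receptor gating. Neto1, which binds kainate receptors, fell in the vermis (-0.38, 0.0291). Of 18 excitatory scaffold genes 1 was higher and 4 were lower in hemisphere SmoM2 cells, with vermis counts of 1 and 3. Camk2b, a kinase of the postsynaptic density, differed by -1.52 (1.51e-05) and -1.35 (4.46e-05), the scaffold gene Dlg2 by -0.65 (0.000684) and -0.66 (0.000498), and the AMPA receptor binding protein Grip1 by 0.82 (0.000166) and 0.85 (0.000111).

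Of 8 genes for glutamate synthesis and transport 1 was higher and 1 lower in hemisphere SmoM2 cells, with vermis counts of 2 and 2. The vesicular transporter Slc17a6 differed by -3.65 (adjusted p = 6.98e-07) and -3.24 (2.38e-06), and another, Slc17a7, by -0.23 (0.21) and -0.39 (0.0414). The group means of Slc17a7 were 3.26 to 3.71, close to the lower quartile of the arrays (3.24 to 3.42). The astroglial transporter Slc1a2 rose by 0.76 (0.000549) and 0.54 (0.0065), and Glul, which makes glutamine, rose in the vermis (0.31, 0.0371). Of these 8 genes Slc17a7 is also a granule neuron marker of the lists above, Slc1a2 and Slc1a3 are astroglial markers and Slc1a6 is a Purkinje cell marker. Of 10 genes of metabotropic receptor signalling 1 was higher and 2 were lower in hemisphere SmoM2 cells, with vermis counts of 1 and 3. The phospholipase Plcb3 rose by 0.61 (0.00249) and 0.70 (0.000864), the channel Trpc1 differed by -0.40 (0.0348) and -0.47 (0.0151), and the phospholipase Plcb1 fell in the vermis (-0.52, 0.0047). Of 7 cerebellins, neurexins and delta receptor partners 1 was higher and 2 were lower in hemisphere SmoM2 cells, with vermis counts of 1 and 3. Cbln4 rose by 3.60 (1.87e-08) and 3.53 (2.53e-08), while Cbln3, the cerebellin of granule neurons, differed by -0.69 (0.0163) and -0.55 (0.0429) and the presynaptic Nrxn3 by -0.42 (0.0934) and -0.75 (0.0063). Cbln3 is counted among the granule neuron markers too. List medians ran from -0.51 to 0.04 in the hemisphere and from -0.65 to 0.07 in the vermis, against -0.05 and -0.06 over all genes.

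**Figure D5:**
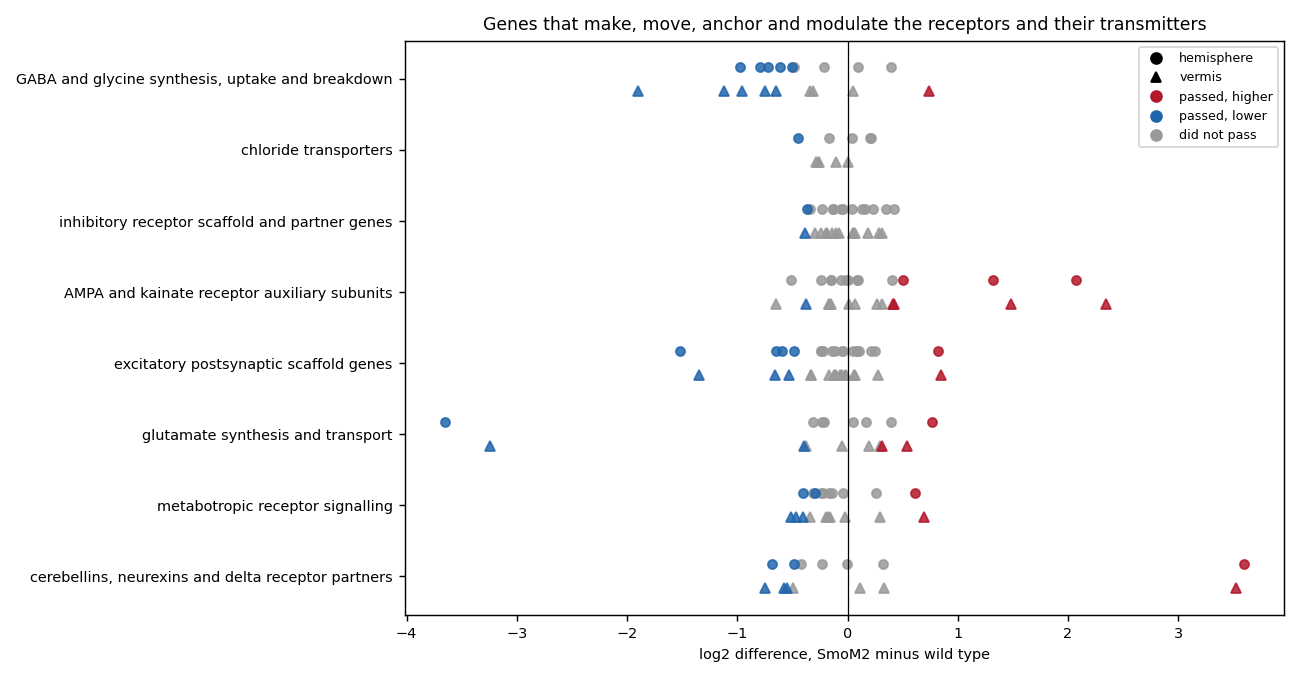
Difference in log2 expression, SmoM2 minus wild type, for the measured members of 8 gene lists, with circles for the hemisphere and triangles for the vermis. Slc17a6 at -3.65 and -3.24 and Cbln4 at 3.60 and 3.53 lie farthest from 0.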

How the data were processed

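RNA from Percoll-isolated granule cell progenitors was hybridised to 12 Affymetrix mouse expression arrays, and each sample was grouped by its title. The authors made the deposited log2 values, 1 for each probe set and array, with Partek and RMA per the submitters' processing notes. RMA gives no detection call. For versions of both, scan dates and further filters, nothing is given in the sources used here. All 12 columns of 45101 probe sets, 64 of them controls, were used as deposited. The platform annotation gave 34958 probe sets 1 symbol, 932 several and 9211 none, and the brightest probe set of each of 18194 genes was kept.

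Differences were tested two-sided with limma 3.58.1 in R 4.3.3, in 1 model with a mean per group (8 residual degrees of freedom) and 5 contrasts, Benjamini-Hochberg adjusted over the 18194 genes, with a threshold of 0.05. The median SD within groups was 0.16, and 3 arrays per group limit the precision. The fit was tested on simulated data with known changes. Deviations of same-numbered hemisphere and vermis arrays of 1 genotype correlated at 0.142 to 0.275 in SmoM2 and 0.337 to 0.527 in wild type. Differently numbered ones correlated at -0.169 to 0.0212 and at -0.404 to -0.112. Same-numbered arrays of a genotype thus deviated together, less so in SmoM2. Across genotypes same-numbered arrays of 1 region correlated at -0.224 to 0.177, a range that overlaps that of SmoM2. The labels state no pairing, and the main model used none. Whether the pools are independent is not stated either, so p-values measure the spread between these pools.

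The receptor genes, the 8 pathway and 9 marker lists and the tests were chosen with earlier results of these data known. Values on every array are given for genes passing in at least 1 contrast, and each pathway list names up to 2 passing genes with the largest difference each way, averaged over the regions. Gene symbols came from the platform annotation. Gene positions and promoter windows came from RefSeq GRCm38.p6, where all 43 genes were found and 32 had a window.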

Additional observations from a re-analysis of the deposited data

How the results depend on the processing

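In the hemisphere 11 receptor genes passed. There 6 passed when only the brighter genes were tested, a setting in which 2247 of all 9097 genes passed. That setting tests fewer than 43 receptor genes, so its counts are not shares of 43. Gabra2, Grik3, Grin2a, Grin3a and Grm5, which passed in the main model, were among the dimmer members left out. When only the groups compared were fitted, which uses fewer arrays, 7 passed, with 1753 of all 18194 genes. In the vermis, also 11, 5 passed with only brighter genes, again of fewer than 43 receptor genes, where 2196 of all 9097 genes passed. Leaving out single arrays gave 4 to 9 in the hemisphere, 5 to 12 in the vermis and 0 to 1 for hemisphere minus vermis in wild type. Over all 18194 genes it gave 1633 to 4276, 1756 to 3827 and 8 to 58. With the pool as a random block 1 receptor gene, Gabra2, passed in that wild type contrast. Over all genes 198 passed there, against 34 in the main model. A fixed replicate block gave 11 and 12 and changed no other count. A replicate block within genotype, added after the correlations of same-numbered arrays were seen, gave 0 in both region contrasts and the interaction. Other normalizations, moderation, array weights and the mean of all probe sets gave 8 to 11 in the hemisphere and 10 to 12 in the vermis, and single probe sets, also added after seeing the data, gave 9 and 11. Grik1 in the hemisphere, 0.10 and not called, came to -0.038 with the mean of its probe sets and to -0.10 without SmoM2 hemisphere replicate 1, within -0.10 to 0.20 on leaving out single arrays. Signal over background limits Gabrq, Glra1, Glra3, Glra4, Grin2a and Grm8, and 3 arrays a group limit all calls near the threshold.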

Other observations

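Several receptor genes that passed in few or no comparisons shared their lowest or highest array among the SmoM2 pools, a pattern chosen after the values were seen. How many other genes share it was not counted, and the part of astroglial RNA in it was not tested. SmoM2 hemisphere replicate 1 had the lowest value of its group for Gria1 (6.16), Grm3 (7.32), Grm7 (4.55) and Gabrg1 (4.51), and the lowest astroglial list mean (8.78, against 9.25 to 9.35 in the other 2 arrays of the group). SmoM2 vermis replicate 1 had the highest value of its group for the same genes, at 7.29, 7.83, 5.22 and 5.66, and the highest astroglial list mean (9.50, against 9.11 to 9.32). In wild type hemisphere replicate 1 they read 7.67, 8.34, 6.25 and 5.69, the highest of that group, with an astroglial mean of 9.66, against 9.21 to 9.65. In wild type vermis the highest astroglial mean was in replicate 3 (9.77), where Grm7 (5.76) was the highest of the group, Grm3 (7.33) and Gabrg1 (5.47) the lowest, and Gria1 (6.88) neither.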
